A study of Mus musculus with 6 samples.

Results

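The Rtl1-antisense miRNAs are the 10 mature products of 5 hairpins, miR-431, miR-433, miR-127, miR-434 and miR-136, which lie in the proximal part of the imprinted Dlk1-Dio3 region of mouse chromosome 12. They were taken by name from the deposited table of miRNA read counts, where all 10 were found among 1482 rows. All 10 passed the filter on low counts, which kept 614 rows. The series compared 3 small RNA libraries labelled SCI (spinal cord injury) with 3 labelled control, each from about 1 cm of mouse spinal cord around vertebral level T10 taken on day 2 after surgery. Per the labels, every mouse had a laminectomy (removal of the vertebral arch) at T10, and the SCI mice were in addition given a moderate contusion by a 10 g weight falling 20 mm. By the labels the laminectomy is common to both groups. Neither strain nor age is stated in the sources used here. The libraries are taken to come from 1 mouse each. Bulk tissue was sequenced, so fewer cells of a type and less of a miRNA per cell cannot be told apart in any value given here.

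In the Dlk1-Dio3 region, protein-coding genes such as Dlk1, Rtl1 and Dio3 are expressed from the paternal chromosome, and the long noncoding RNAs Meg3, Rian and Mirg together with many miRNAs are expressed from the maternal one. Rtl1 is a gene derived from a retrotransposon and is needed in the placenta. The miRNAs transcribed across it from the opposite, maternal strand are fully complementary to Rtl1 mRNA and can direct its cleavage. Outside this pairing they act like other miRNAs, through the seed at bases 2 to 8, and the region's miRNAs are abundant in the nervous system. A hairpin gives a 5p and a 3p product from its 2 arms, of which usually 1 is retained more.

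The 5 hairpins lie within 4942 bases on the plus strand of chromosome 12 (GRCm38.p6, RefSeq), inside Rtl1 (chr12:109589193-109600330, minus strand, GENCODE M21, same assembly). In the direction of the miRNAs' transcription the order is Mir431 (chr12:109590447-109590537), Mir433 (chr12:109591715-109591838), Mir127 (chr12:109592846-109592915), Mir434 (chr12:109594506-109594599) and Mir136 (chr12:109595327-109595388). All 10 mature sequences fall in the coding sequence of Rtl1 and none in its introns or untranslated regions. Names carry the prefix mmu (mouse) in the table. None of the 10 shares its seed with another row of the table that was matched by name to a RefSeq sequence. Rows without such a match were not compared. Each is printed here 5′ to 3′ from RefSeq with its seed in capitals, to show that no 2 of the 10 share a seed.
mmu-miR-431-5p: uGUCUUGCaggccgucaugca
mmu-miR-431-3p: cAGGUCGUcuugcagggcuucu
mmu-miR-433-5p: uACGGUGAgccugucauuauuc
mmu-miR-433-3p: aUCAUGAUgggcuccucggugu
mmu-miR-127-5p: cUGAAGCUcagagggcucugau
mmu-miR-127-3p: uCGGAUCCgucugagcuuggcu
mmu-miR-434-5p: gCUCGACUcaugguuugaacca
mmu-miR-434-3p: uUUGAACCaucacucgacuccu
mmu-miR-136-5p: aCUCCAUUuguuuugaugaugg
mmu-miR-136-3p: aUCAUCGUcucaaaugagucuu

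A search of 58797 protein-coding transcripts of 21877 genes in GENCODE M21 found the full complement of each of the 10 sequences in 1 gene, Rtl1. The sites of the most abundant members are shown as they stand in Rtl1 mRNA (an annotated transcript of 6358 bases), with the bases that face the seed in capitals. The site of miR-127-3p is at bases 2642 to 2663 of the transcript and that of miR-434-5p at bases 1002 to 1023.
Rtl1 site of miR-127-3p: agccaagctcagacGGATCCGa
Rtl1 site of miR-434-5p: tggttcaaaccatgAGTCGAGc

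Total counts were 7100472 to 8889977 in the SCI-labelled and 5568491 to 7360149 in the control-labelled libraries. The labels run against known markers of injury. Of a list of 7 miRNAs known to rise after injury, among them miR-21a-5p and miR-223-3p, all 7 were lower in the SCI-labelled libraries, with summed levels of 12357 to 13585 CPM (counts scaled to a common library total, with TMM factors) in the SCI-labelled and 77087 to 131640 CPM in the control-labelled libraries. The SCI-labelled columns carry the word Normal in the deposited table, tied to the label SCI only through the sample descriptions. The libraries are therefore called by their labels, and each direction below is that of the labels as deposited. Control-labelled library 3 stood apart from the others of its group. miR-133a-3p, a skeletal muscle miRNA, was at 1581 CPM in it, against 129 and 171 CPM in control-labelled libraries 1 and 2. The 7 injury miRNAs summed to 131640, 98728 and 77087 CPM in control-labelled libraries 1, 2 and 3, so library 3 was the nearest to the SCI-labelled ones.

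The Rtl1-antisense miRNAs were higher in the SCI-labelled libraries in 5 of 10 cases. These 5 were miR-434-5p, miR-136-5p, miR-431-3p, miR-127-3p and miR-433-3p, with fitted folds between 1.64 and 2.68 (edgeR quasi-likelihood test, Benjamini-Hochberg adjusted over 614 rows, threshold 0.05). None was lower in edgeR, also at an unadjusted p below 0.05, nor in DESeq2 or limma voom. With all 6 libraries, DESeq2 called 6 members and 108 of all rows higher, and limma voom 7 members and 125 of all rows. The limma voom fit weighted each library by its estimated quality, so an outlying library can count for less in it. By edgeR, 6 were called higher with upper quartile scaling, 6 with no filter on low counts, and 4 with the library total as the only scaling. The background moved too, with 120, 111 and 75 of all rows called higher in these 3 settings. In the main edgeR fit, 100 of the 614 rows tested (16.3%) were higher and 23.1% were lower. The fitted log2 change, SCI-labelled minus control-labelled, was above 0 for 9 of the 10, with a median of 0.68, where the median of all rows tested was -0.07. In 6 of the 10, every SCI-labelled library was above every control-labelled library, which was so for 23.3% of rows tested. The 5 that did not pass were miR-127-5p, miR-136-3p, miR-433-5p, miR-434-3p and miR-431-5p.

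**Figure D1:**
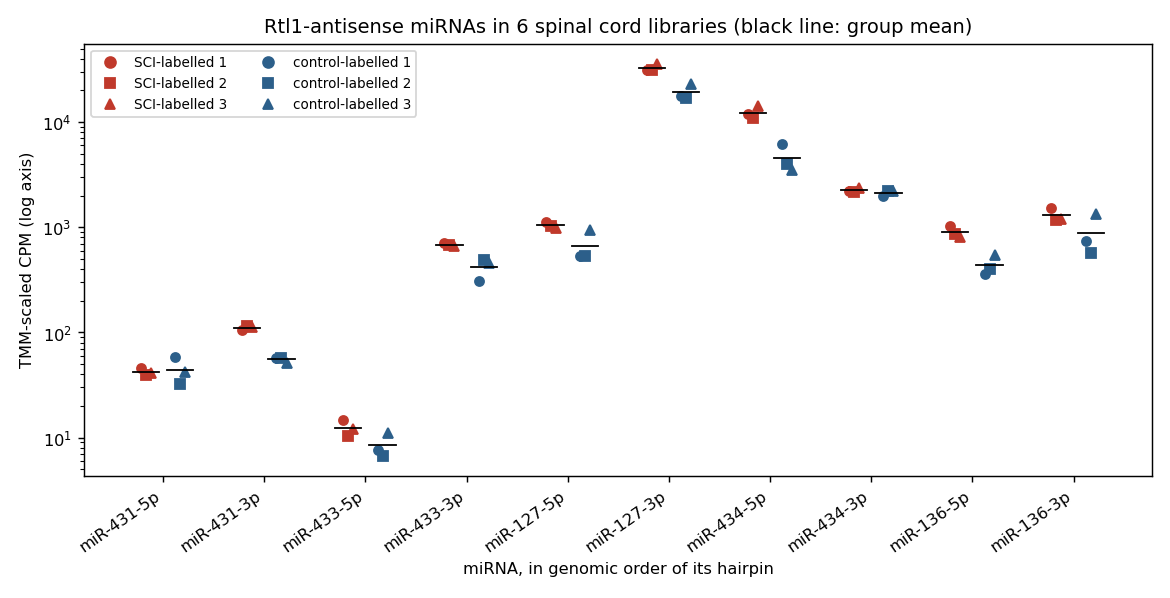
Level of each Rtl1-antisense miRNA in every library, as TMM-scaled CPM on a log axis, with SCI-labelled libraries in red to the left of control-labelled libraries in blue and a black line at each group mean. The groups are separated for miR-434-5p, miR-431-3p, miR-136-5p, miR-433-3p, miR-127-3p and, narrowly, miR-127-5p, while miR-434-3p lies between 1992 and 2376 CPM in all 6 libraries.

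The levels of the 10 differed widely within this short stretch of genome. Levels are TMM-scaled CPM with no correction for length, since the mature sequences are 21 or 22 bases long, and the efficiency with which each is cloned into a library is not known. The order by mean level was the same in both groups: miR-127-3p, miR-434-5p, miR-434-3p, miR-136-3p, miR-127-5p, miR-136-5p, miR-433-3p, miR-431-3p, miR-431-5p and miR-433-5p. In the SCI-labelled group only miR-127-5p and miR-136-5p overlapped as neighbours in that order. In the control-labelled group the ranges of neighbours from miR-136-3p down to miR-433-3p overlapped, as did those of miR-431-3p and miR-431-5p. By mean level over 6 libraries, miR-127-3p ranked 12 and miR-434-5p 25 among the 614 rows tested, and miR-433-5p ranked 411.

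mmu-miR-127-3p, the product best known for directing cleavage of Rtl1, was at 31242, 31308 and 35936 CPM in SCI-labelled libraries 1, 2 and 3, and at 17836, 16871 and 23079 CPM in control-labelled libraries 1, 2 and 3. The groups did not overlap, and control-labelled library 3 was the closest to the SCI-labelled ones. The fitted difference was 1.70-fold (log2 0.77, SE 0.19; edgeR adjusted p = 0.0123). The call was lost without SCI-labelled library 3 (edgeR adjusted p = 0.0689). The other arm, miR-127-5p, was at 1119, 1030 and 983 CPM in the SCI-labelled and at 529, 529 and 938 CPM in the control-labelled libraries. Its log2 difference of 0.65 (SE 0.26) had an edgeR adjusted p of 0.0779 and did not pass. With all 6 libraries it passed in DESeq2 (adjusted p = 0.0342) and in limma voom with its weights for library quality (0.00407). It also passed in edgeR with upper quartile scaling (0.031) or no filter on low counts (0.0422). Without control-labelled library 3 its log2 difference was 1.02 and passed (edgeR adjusted p = 0.000509). In the other 9 alternative fits miR-127-5p did not pass. These included the library total as the only scaling (edgeR adjusted p = 0.214) and the removal of any other library (0.106 to 0.219).

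mmu-miR-434-5p had the largest difference of the 10. It was at 11823, 10835 and 14056 CPM in SCI-labelled libraries 1, 2 and 3, and at 6173, 3980 and 3524 CPM in control-labelled libraries 1, 2 and 3. The lowest SCI-labelled library was well above the highest control-labelled one, and here control-labelled library 3 was the lowest of all 6. The fitted difference was 2.68-fold (log2 1.42, SE 0.25; edgeR adjusted p = 0.00251). Its partner on the same hairpin, miR-434-3p, described in mouse muscle as a repressor of the translation factor eIF5A1, had overlapping groups. It was at 2194, 2187 and 2376 CPM in the SCI-labelled and at 1992, 2201 and 2202 CPM in the control-labelled libraries, with a log2 difference of 0.08 (SE 0.16; edgeR adjusted p = 0.721).

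The arms of miR-434 thus differed in how they changed. The ratio of 5p to 3p counts within a library needs no scaling between libraries. It was 5.39, 4.96 and 5.92 in SCI-labelled libraries 1, 2 and 3, and 3.10, 1.81 and 1.60 in control-labelled libraries 1, 2 and 3. The 5p arm was the larger in all 6 libraries, and the groups did not overlap. The mean log2 ratio was 2.43 ± 0.13 in the SCI-labelled and 1.05 ± 0.51 in the control-labelled libraries (SD, n = 3 each). The test of arm usage (edgeR diffSpliceDGE, adjusted over 179 hairpins) gave an adjusted p of 0.0027, and this call was kept without any 1 library and with the replicate number as a block. The hairpin is printed with its mature arms in capitals, to show where these products come from and that the run UUUGAACCA, which both arms contain, also stands in the 5′ flank.
Mir434 hairpin: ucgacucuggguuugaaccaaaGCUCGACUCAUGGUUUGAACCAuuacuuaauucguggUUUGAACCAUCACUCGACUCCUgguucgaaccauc

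miR-431 was the other hairpin whose arms changed unequally, in favour of its 3p arm. miR-431 is known from mouse sensory neurons, where it rises after nerve injury and promotes axon growth through the Wnt antagonist Kremen1. That role is given here for miR-431 with no arm named, and no value here ties it to the 3p arm. mmu-miR-431-3p was at 107, 115 and 112 CPM in the SCI-labelled and at 57.6, 57.8 and 51.7 CPM in the control-labelled libraries. The libraries of each group were close to each other and the groups far apart. The difference was 1.99-fold (log2 1.00, SE 0.18; edgeR adjusted p = 0.00339). mmu-miR-431-5p was at 46.2, 39.8 and 41.3 CPM in the SCI-labelled and at 58.1, 32.0 and 42.0 CPM in the control-labelled libraries, which enclosed the SCI-labelled ones. Its log2 difference was -0.05 (SE 0.25; edgeR adjusted p = 0.867), a sign that the upper quartile scaling turned (0.08).

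The ratio of miR-431-5p to miR-431-3p counts was 0.433, 0.347 and 0.370 in SCI-labelled libraries 1, 2 and 3, and 1.01, 0.555 and 0.813 in control-labelled libraries 1, 2 and 3. In control-labelled library 1 the arms had nearly equal counts, 363 for 5p and 360 for 3p. The change in arm usage passed the test (edgeR diffSpliceDGE adjusted p = 0.0158), but not without SCI-labelled library 1 (0.0596), 2 (0.106) or 3 (0.0891), nor with no filter on low counts (0.0890). The hairpin is printed with its arms in capitals because they share a run of 10 bases, GUCUUGCAGG, within otherwise different sequences.
Mir431 hairpin: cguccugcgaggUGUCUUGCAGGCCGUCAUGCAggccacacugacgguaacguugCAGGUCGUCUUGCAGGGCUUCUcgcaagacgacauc

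miR-433 is the hairpin between miR-431 and miR-127. mmu-miR-433-3p, a product described in human cells as acting on FGF20 mRNA, was at 712, 674 and 666 CPM in the SCI-labelled and at 305, 487 and 455 CPM in the control-labelled libraries. The groups did not overlap, and the SCI-labelled libraries were the tighter of the 2 groups. The difference was 1.64-fold (log2 0.72, SE 0.22; edgeR adjusted p = 0.0321). This call was lost in 6 alternatives, among them the library total as the only scaling (edgeR adjusted p = 0.0902) and the removal of any SCI-labelled library (0.0952, 0.0649 and 0.083 without 1, 2 and 3).

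mmu-miR-433-5p was the rarest of the 10, with 120, 67 and 106 counts in the SCI-labelled and 48, 37 and 94 counts in the control-labelled libraries. At this depth the exact 95% Poisson interval for control-labelled library 2 ran from 26.1 to 51.0 counts, and such intervals cover counting error only. In CPM, SCI-labelled library 2, at 10.4, was below control-labelled library 3, at 11.1, so the groups overlapped. The log2 difference of 0.54 (SE 0.28) did not pass (edgeR adjusted p = 0.16).

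mmu-miR-136-5p was at 1024, 854 and 808 CPM in the SCI-labelled and at 363, 403 and 543 CPM in the control-labelled libraries. The groups did not overlap. The difference was 2.05-fold (log2 1.04, SE 0.22; edgeR adjusted p = 0.00665). mmu-miR-136-3p was at 1528, 1169 and 1201 CPM in the SCI-labelled and at 737, 565 and 1334 CPM in the control-labelled libraries. Control-labelled library 3 was above SCI-labelled libraries 2 and 3, and the log2 difference of 0.56 (SE 0.31) did not pass (edgeR adjusted p = 0.198). It passed in limma voom with all 6 libraries, weighted by their quality (log2 0.85, adjusted p = 0.0121). Without control-labelled library 3 its log2 difference was 1.04 and passed in edgeR (adjusted p = 0.00132). In the other 12 alternative fits miR-136-3p did not pass. These included the removal of any other library (edgeR adjusted p of 0.181 to 0.455).

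At miR-136 a second miRNA gene, Mir3071 (chr12:109595318-109595397), is annotated on the opposite strand at the same place, and its arms overlap those of miR-136 by 20 and 19 bases. The overlapping arms are printed 5′ to 3′, with the seeds in capitals, to show that miR-3071-5p read backwards as its complement is nearly miR-136-3p.
mmu-miR-136-3p: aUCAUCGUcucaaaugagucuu
mmu-miR-3071-5p: aCUCAUUUgagacgaugaugga
miR-3071-5p had 11873, 7269 and 10193 counts in the SCI-labelled and 4413, 2967 and 10422 counts in the control-labelled libraries. miR-136-3p had 12331, 7544 and 10604 counts in the SCI-labelled and 4601, 3120 and 11332 counts in the control-labelled libraries. The ratio of miR-3071-5p to miR-136-3p stayed between 0.961 and 0.964 in the SCI-labelled and between 0.92 and 0.959 in the control-labelled libraries. The other pair, miR-3071-3p over miR-136-5p, stood at 1.35, 1.43 and 1.5 in the SCI-labelled and at 1.47, 1.38 and 1.2 in the control-labelled libraries. Across the table, 14 pairs of miRNAs from different hairpins overlapped by at least 15 bases on opposite strands with at least 100 counts in both rows, and in 10 of them the totals were equal to within 5%. Whether the authors counted reads by strand is not given in the sources used here, so reads of miR-136 and of miR-3071 cannot be told apart. The same holds for any short fragments of Rtl1 mRNA at the sites of the other members.

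**Figure D2:**
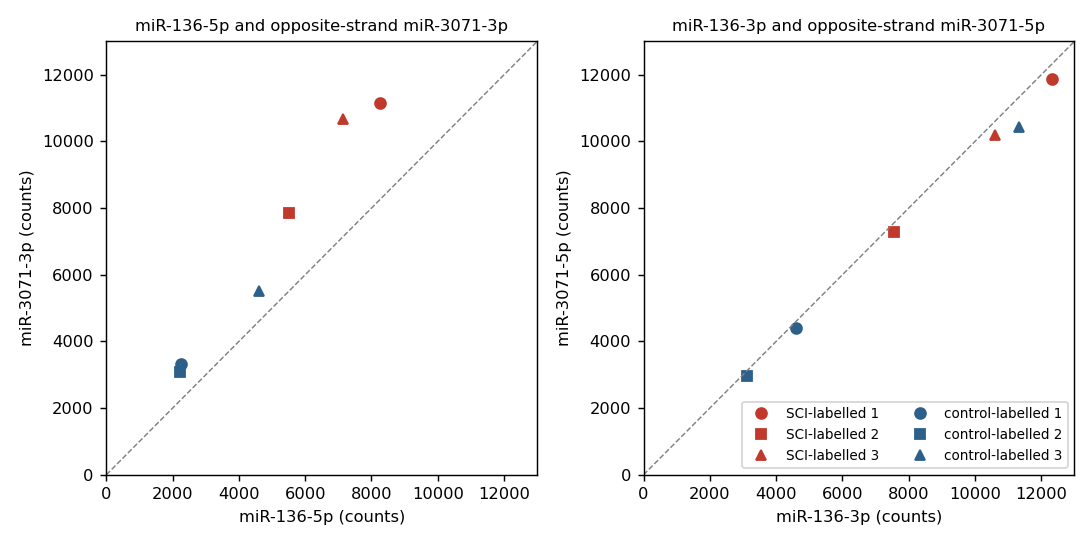
Raw counts of the arms of miR-136 (horizontal) against the opposite-strand arms of miR-3071 (vertical) in the 3 SCI-labelled (red) and 3 control-labelled (blue) libraries, with a dashed line at equal counts. The miR-3071-5p points follow the line just below it, and the miR-3071-3p points lie above it at ratios of 1.2 to 1.5.

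Arm usage was tested in all 5 hairpins, and 2 of them, miR-434 and miR-431, passed. Of 179 hairpins in the table with both arms tested, 30.2% passed, 16.2% towards 5p and 14% towards 3p, so 2 of 5 is close to that background. miR-433 and miR-127 kept nearly all their reads on the 3p arm. In miR-433 the 5p arm held 2.05%, 1.52% and 1.77% of the hairpin's counts in the SCI-labelled and 2.46%, 1.36% and 2.37% in the control-labelled libraries. In miR-127 it held 3.46%, 3.19% and 2.66% in the SCI-labelled and 2.88%, 3.04% and 3.90% in the control-labelled libraries. In both the groups overlapped (edgeR diffSpliceDGE adjusted p = 0.704 for miR-433 and 0.8 for miR-127). The miR-136 arms were nearer to each other, with 5p over 3p ratios of 0.670, 0.731 and 0.673 in the SCI-labelled and 0.493, 0.714 and 0.407 in the control-labelled libraries, and did not pass (edgeR diffSpliceDGE adjusted p = 0.396).

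**Figure D3:**
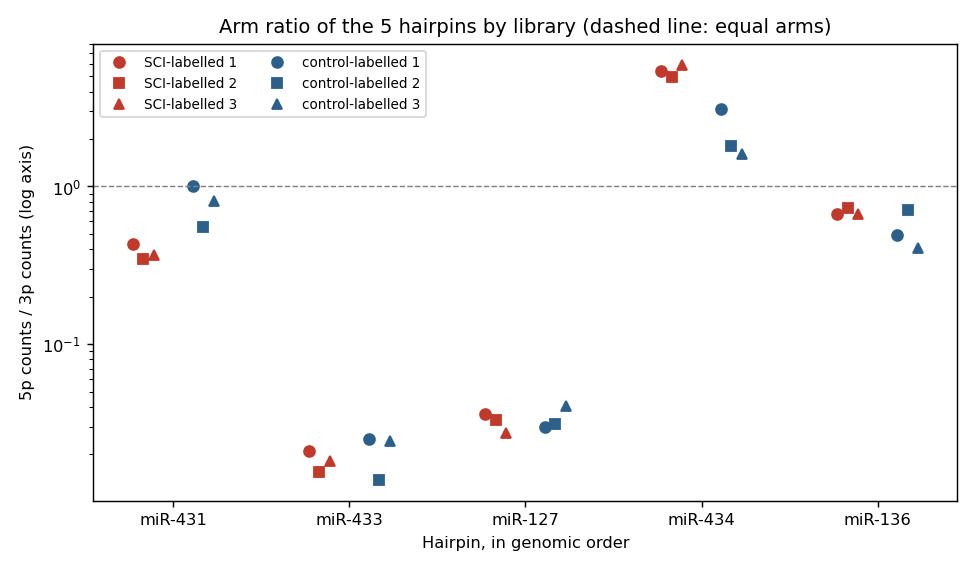
Ratio of 5p to 3p counts of each hairpin in the 3 SCI-labelled (red) and 3 control-labelled (blue) libraries, on a log axis, with a dashed line at equal arms. The SCI-labelled points of miR-434, at 4.96 to 5.92, lie above its control-labelled points, at 1.60 to 3.10, and those of miR-431, at 0.347 to 0.433, lie below, at 0.555 to 1.01 in the control-labelled libraries.

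With the 2 arms summed, all 5 hairpins were higher in the SCI-labelled libraries (edgeR quasi-likelihood test over 443 hairpins, of which 20.3% were higher). The folds were 2.31 for miR-434 (edgeR adjusted p = 0.0033), 1.83 for miR-127 (0.00621), 1.81 for miR-136 (0.0263), 1.78 for miR-433 (0.0114) and 1.65 for miR-431 (0.0193). The TMM scaling of this hairpin table set log2 changes higher by 0.10 at the median than the scaling of the table of arms, with which all 5 also passed, miR-136 with an edgeR adjusted p of 0.0483. With the library total as the only scaling 2 of the 5 passed. Without SCI-labelled library 3, 1 passed, without SCI-labelled library 2, 2 passed, and without SCI-labelled library 1 or control-labelled library 2, 3 passed. The share of all hairpins called in these settings is not given here. Of single miRNAs, 75, 54, 75, 63 and 77 of all rows were higher in them, in that order, against 100 in the main fit. miR-434 passed in every alternative run.

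**Figure D4:**
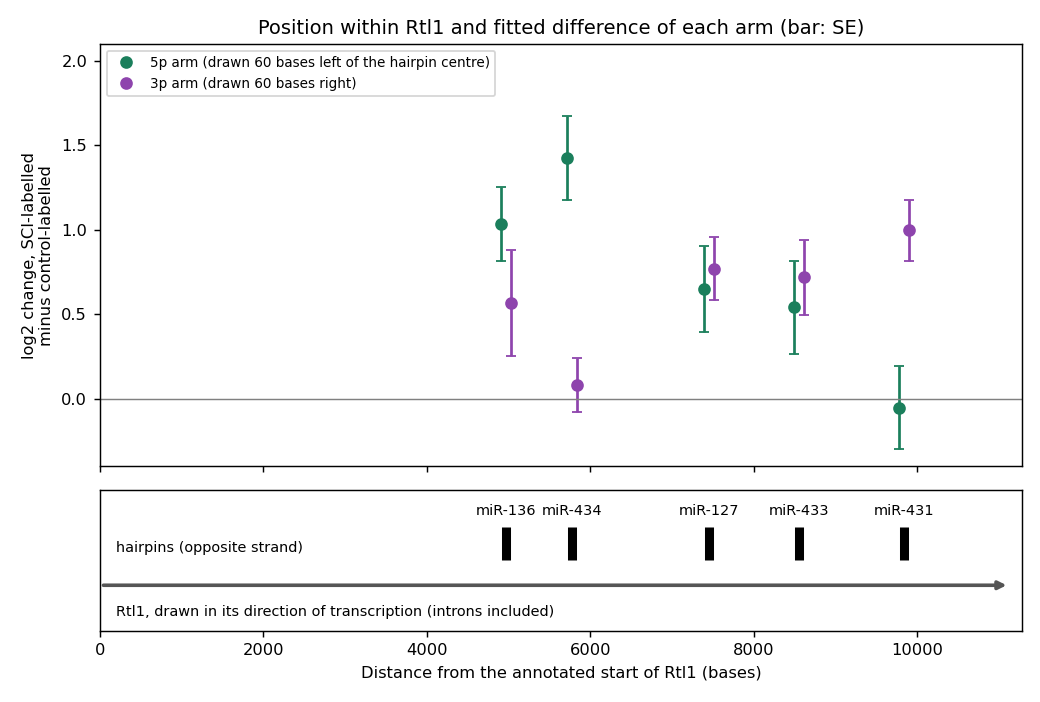
Fitted log2 change of each arm, SCI-labelled minus control-labelled, with its SE, against the distance of its hairpin from the annotated start of Rtl1, and below it the position of each hairpin along Rtl1 on the opposite strand. Both arms of miR-127 and miR-433 lie between 0.54 and 0.77, while the arms of miR-434, at 1.42 and 0.08, and of miR-431, at -0.05 and 1.00, lie apart.

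Ratios between hairpin sums within a library were compared to see whether the 5 hairpins differed by 1 common factor. Of 10 pairs, 9 had overlapping groups. The exception was miR-431 over miR-434, at 0.0109, 0.0119 and 0.00932 in the SCI-labelled and 0.0142, 0.0145 and 0.0164 in the control-labelled libraries. Its exact two-sided permutation p was 0.1, the smallest that 3 libraries against 3 allow, and 1 after adjustment over the 10 pairs, so this design cannot show a difference here. miR-127 over miR-136 was at 12.7, 16.0 and 18.4 in the SCI-labelled and 16.7, 18.0 and 12.8 in the control-labelled libraries, a spread as wide within a group as between them.

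Together the 10 miRNAs held 5.09%, 4.38% and 5.58% of all counts in SCI-labelled libraries 1, 2 and 3, and 2.66%, 2.49% and 3.71% in control-labelled libraries 1, 2 and 3 (exact two-sided permutation p = 0.1, the smallest possible). The groups did not overlap, and control-labelled library 3 had the highest share of its group. miR-127-3p alone made up 62.7% to 64.9% of the reads of the 10 in the SCI-labelled and 63.6% to 71.7% in the control-labelled libraries. miR-434-5p made up 23.7%, 22.5% and 25.0% in the SCI-labelled, and 22.0%, 15.8% and 11.0% in the control-labelled libraries.

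Control-labelled library 3 was above both other control-labelled libraries for 6 of the 10 members, against 39.3% of rows tested. miR-136-3p was 2.05 times and miR-127-5p 1.77 times the mean of the other control-labelled libraries there, while miR-434-5p was 0.694 times that mean. Without this library 8 members were higher in the SCI-labelled group, of a background of 24%, and miR-434-3p and miR-431-5p still did not pass. Without SCI-labelled library 3, 3 members were higher, of a background of 8.46%: miR-434-5p, miR-136-5p and miR-431-3p. Of the marker lists, 7 skeletal muscle miRNAs summed to 9874 to 20468 CPM in the SCI-labelled libraries and to 8312, 11942 and 37859 CPM in control-labelled libraries 1, 2 and 3, 1 of 6 tested being higher; no listed marker of any list was at 0 in all libraries. The 12 neuron miRNAs summed to 143120 to 154830 CPM in the SCI-labelled libraries and to 87489, 78489 and 105470 CPM in control-labelled libraries 1, 2 and 3. Most of that sum was miR-9-5p, at 90727 to 102140 CPM in the SCI-labelled and 59415, 53348 and 80049 CPM in control-labelled libraries 1, 2 and 3. Of the 12, 5 were higher, 1 was lower and 6 did not pass. The log2 change was above 0 for 9. It was below 0 for miR-124-3p (-0.52, edgeR adjusted p = 0.339), miR-132-3p (-0.09) and miR-212-3p (-0.91, the lower one). The 8 leukocyte miRNAs summed to 730 to 745 CPM in the SCI-labelled libraries and to 2936, 3425 and 2168 CPM in control-labelled libraries 1, 2 and 3, 6 of 7 tested being lower. Among these, miR-223-3p, miR-142a-3p and miR-155-5p also belong to the injury list above, so the 2 lists are not separate observations. All 5 erythroid miRNAs were lower, at summed levels of 2765 to 5786 CPM in the SCI-labelled libraries and 37923, 33109 and 11737 CPM in control-labelled libraries 1, 2 and 3. So were all 5 fibroblast miRNAs, at 600.4 to 1124 CPM in the SCI-labelled libraries and 3221, 1932 and 3515 CPM in control-labelled libraries 1, 2 and 3. The 5 oligodendrocyte miRNAs did not pass the test, with summed levels of 11804 to 12570 CPM in the SCI-labelled libraries and 11610, 13827 and 10222 CPM in control-labelled libraries 1, 2 and 3. Control-labelled library 3 was thus the nearest of its group to the SCI-labelled libraries in the neuron, leukocyte and erythroid sums. It was not the nearest in the muscle, fibroblast and oligodendrocyte sums. Without control-labelled library 3, 7 of the neuron, 3 of the muscle and 1 of the oligodendrocyte miRNAs were higher in edgeR, and the counts for the leukocyte, erythroid and fibroblast lists were as given. The part of these cell types in the differences of the Rtl1-antisense miRNAs was not tested.

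**Figure D5:**
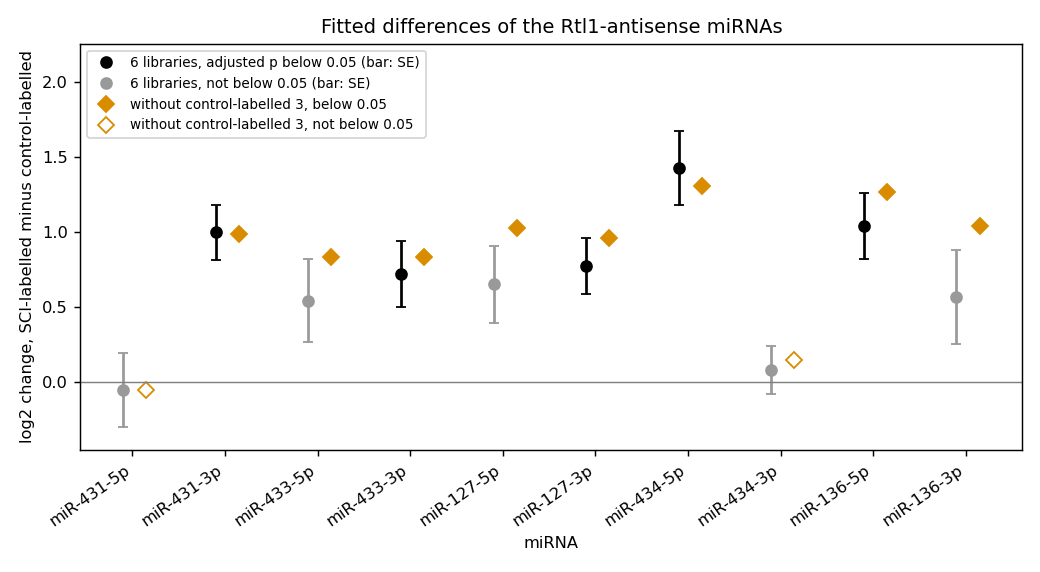
Fitted log2 change of each member, SCI-labelled minus control-labelled, over 6 libraries (circles with SE, black where the edgeR adjusted p is below 0.05) and without control-labelled library 3 (diamonds, filled where below 0.05). miR-127-5p, miR-136-3p and miR-433-5p pass without that library, at 1.02, 1.04 and 0.83, and miR-431-5p and miR-434-3p stay near 0 in both.

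Elsewhere in the imprinted region the picture was mixed. Of 20 further rows of the proximal part, 15 were tested. Of these, 3 had higher levels in SCI-labelled libraries, where 16.3% of all rows tested did. The other 12 did not pass, 5 of them with a log2 change below 0. The median log2 change of the 15 was 0.24, against -0.07 over all rows tested. The 3 were miR-370-3p, at 1318 ± 89.7 CPM in the SCI-labelled and 713 ± 186 CPM in the control-labelled libraries (SD, n = 3 each; log2 0.89), miR-370-5p (log2 0.74) and miR-673-3p (log2 1.16). miR-341-3p, at 1286, 949 and 1050 CPM in the SCI-labelled and 458, 543 and 1203 CPM in the control-labelled libraries, did not pass (log2 0.58, edgeR adjusted p = 0.239) and, like miR-136-3p, was high in control-labelled library 3. Without that library its log2 change was 1.17 and passed (edgeR adjusted p = 0.000441). miR-770-3p was at 254, 338 and 328 CPM in the SCI-labelled and 235, 331 and 95.9 CPM in the control-labelled libraries, and was low in control-labelled library 3. The log2 changes of the other rows that did not pass were 0.42 for miR-770-5p, 0.31 for miR-3544-3p, 0.24 for miR-341-5p, 0.09 for miR-337-5p, 0.05 for miR-673-5p, -0.09 for miR-493-5p, -0.22 for miR-3544-5p, -0.23 for miR-337-3p, -0.27 for miR-540-3p and -1.20 for miR-665-3p. miR-3544-5p and miR-337-3p overlap on opposite strands and had near-equal counts. miR-493-3p, miR-540-5p, miR-665-5p, miR-3070-5p and miR-3070-3p did not pass the filter on low counts. Without control-labelled library 3, 4 of the 15 were higher in edgeR, among them the same 3, where 24% of all rows tested were higher. The sign of 4 turned, and the median log2 change was 0.59, against 0.08 over all rows tested without that library.

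Of the more distal miR-379/miR-410 cluster in Mirg, 55 of 70 listed rows were tested. In the SCI-labelled libraries 20 of these were higher and 2 lower, and 33 did not pass the edgeR test. Over all rows tested, 16.3% were higher and 23.1% lower. The median log2 change of the 55 was 0.44. Without control-labelled library 3, 27 were higher, among them the same 20, and 2 were lower in edgeR, with a median of 0.69. Over all rows tested without it, 152 of 634 were higher and 179 lower. The 3 most abundant rows of the list were miR-381-3p (log2 1.58, edgeR adjusted p = 0.00141), miR-379-5p (0.35, 0.209) and miR-541-5p (0.59, 0.0342). The counts of the 10 Rtl1-antisense miRNAs divided by those of the Mirg list were 1.99, 1.91 and 2.14 in the SCI-labelled and 1.83, 1.79 and 2.26 in the control-labelled libraries. The groups overlapped (exact two-sided permutation p = 0.8), and the sign of the mean difference, 0.05, turned without SCI-labelled library 3 or control-labelled library 1 or 2. Without miR-381-3p, the most abundant row of the Mirg list, the ratio was 2.84, 2.61 and 3.19 in the SCI-labelled and 2.32, 2.07 and 2.75 in the control-labelled libraries. The mean difference was then 0.50 and the groups still overlapped (exact two-sided permutation p = 0.2).

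The rows most like miR-127-3p were found by the root mean square difference between log2 CPM profiles over 6 libraries, each centred on its own mean, among 268 other rows with a mean of at least 50 CPM. The 5 nearest rows outside the 10 were miR-181d-5p (0.08), miR-598-3p (0.09), miR-335-3p (0.11), miR-411-5p (0.11) and miR-485-3p (0.14), where the median over all rows was 0.52. The last 2 belong to the Mirg cluster. mmu-miR-127-5p, from the same hairpin, was at 0.19 and at place 10 of that order, and miR-434-5p was at 0.48 and at place 119.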

How the data were processed

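The authors deposited whole-number read counts per mature miRNA, without normalization, and a TPM column per library, which equals CPM of the deposited column totals to within 2.74e-05 and was not tested further. Bowtie and mm10 are named in the submitters' processing notes; not given in the sources used here are the miRBase release, the mismatches allowed, the strand rule and how a read matching several miRNAs was counted. Each NEBNext small RNA library was made of 3 µg total RNA, per the labels' protocols.

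The sample descriptions gave each column its sample. The counts were fitted by edgeR 4.0.16 (R 4.3.3), after filterByExpr (minimum count 10) and TMM, in a robust quasi-likelihood model of the 2 groups of 3 with no covariate, with Benjamini-Hochberg adjustment over 614 rows. The SE is the size of the log2 change over the square root of F. Hairpin sums and arm usage (diffSpliceDGE, 179 hairpins) were fitted likewise, a hairpin being the name without its arm. Single values were compared by exact two-sided permutation tests. Each library is taken as 1 mouse. The edgeR p-values set the difference between groups against the spread between libraries, estimated with information shared across rows. No pair of libraries of a group agreed within sampling noise. Alternatives included DESeq2 1.42.0 and limma 3.58.1 voom with a quality weight for each library. The steps were tested on simulated data.

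The named miRNAs are the 10 members, the further rows of the proximal region, the 3 most abundant Mirg rows, the 5 rows nearest to miR-127-3p and marker miRNAs. The members and lists were chosen with earlier results of these data known. miRNA sequences are from RefSeq, and all 10 members matched by name.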

Additional observations from a re-analysis of the deposited data

How the results depend on the processing

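miR-434-5p, miR-136-5p and miR-431-3p were higher in the SCI-labelled libraries past the test in all 14 alternatives to the fit of single miRNAs, and the arm shift of miR-434 in all 8 run for it. Leaving out each library in turn gave 3 to 8 members called higher and 0 lower, 54 to 152 of all rows higher and 87 to 179 lower, 1 to 5 member hairpins higher, and 1 to 2 member hairpins with changed arm usage. It gave a log2 change of -0.24 to 0.27 for miR-431-5p, of -0.21 to 0.0623 for the 5p minus 3p difference of miR-127, a difference of 1.78 to 2.44 percentage points in the members' share of counts, and of -0.0316 to 0.202 in their ratio to the Mirg list. The library total as the only scaling put miR-434-3p at -0.0051 and left 2 member hairpins called, and no filter on low counts left 1 with changed arm usage. The upper quartile raised log2 changes by 0.12 at the median and put miR-431-5p at 0.0816. Without the 10 most abundant rows in the denominator the difference in share was 5.38 percentage points, and without the most abundant Mirg row the difference in ratio was 0.50. With the replicate block 4 members and 78 of all rows were called higher, miR-433-3p being lost (edgeR adjusted p = 0.0536). Deviations from the group mean correlated at -0.26, 0.17 and -0.18 between libraries of the same number, and at -0.22 to 0.33 between those of different numbers. These correlations cannot show whether the replicate numbers pair the samples, as deviations within a group are tied to each other. The deposited columns of control-labelled libraries 1, 2 and 3 are numbered 2, 3 and 5. Those of SCI-labelled libraries 1, 2 and 3 are numbered 1, 2 and 3. The column numbers thus give no ground for such pairs, and the replicate block may join unrelated libraries. The causes were not tested. Taking rows that overlap on opposite strands as 1, and the scaling of the arm table for hairpin sums, were chosen after seeing the data.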
